A study of Mus musculus with 4 samples.

Results

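The Zic genes measured here were Zic1, Zic2, Zic4 and Zic5, 4 of the 22180 genes that could be named on these arrays. They were chosen by their symbols and as members of 1 family that moved in opposite directions, so their day 7 minus day 4 differences are described below without a test. The arrays were of retinal aggregates grown from wild-type mouse embryonic stem cells in medium containing matrigel, with 2 arrays from day 4 and 2 from day 7 of retinal differentiation. All 4 arrays came from the same kind of cell, an EB5 derivative of strain 129/Ola with GFP knocked in under the Rx promoter. Rx, also written Rax, is a gene of the eye field. Whether the 2 replicates of a day were grown separately is not stated, so the p-values rest on a spread that may be purely technical.

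Zic genes encode transcription factors with a tandem row of C2H2 zinc fingers, related to those of the Gli proteins of the hedgehog pathway. In the embryo they act in the early neural plate, the dorsal neural tube and the neural crest, and the family is known for roles in neural tube closure and forebrain division. Zic1 and Zic4 lie next to each other on chromosome 9, and Zic5 and Zic2 on chromosome 14, according to RefSeq (GRCm38.p6).

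The 2 genes on chromosome 9 were higher at day 7 and the 2 on chromosome 14 were lower. Zic1 was 25.3-fold higher and Zic4 2.24-fold higher, while Zic2 was 1.92-fold lower and Zic5 1.90-fold lower. Because neighbours moved the same way, promoter sequences are given first, from RefSeq's GRCm38.p6 table, in which 3 of the 4 genes matched (Zic1, Zic4 and Zic5, not Zic2). They show both genes of the chromosome 9 pair and 1 of the chromosome 14 pair. Each run holds the 250 bases before the start site, 5′ to 3′ on the gene's own strand, with capitals on matches to CCAAT or CCACCC on either strand. The windows are chr9:91365769-91366018 on the minus strand, chr9:91368722-91368971 on the plus strand and chr14:122465659-122465908 on the minus strand.
Zic1: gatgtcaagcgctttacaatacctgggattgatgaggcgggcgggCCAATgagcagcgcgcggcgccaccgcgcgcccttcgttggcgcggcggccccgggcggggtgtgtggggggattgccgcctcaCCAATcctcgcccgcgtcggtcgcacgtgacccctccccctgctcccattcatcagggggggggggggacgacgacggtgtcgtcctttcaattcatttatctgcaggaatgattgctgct
Zic4: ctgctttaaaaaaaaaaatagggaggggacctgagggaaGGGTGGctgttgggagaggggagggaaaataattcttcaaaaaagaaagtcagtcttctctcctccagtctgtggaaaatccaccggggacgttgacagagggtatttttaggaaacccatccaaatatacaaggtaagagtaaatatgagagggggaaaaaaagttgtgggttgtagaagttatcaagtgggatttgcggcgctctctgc
Zic5: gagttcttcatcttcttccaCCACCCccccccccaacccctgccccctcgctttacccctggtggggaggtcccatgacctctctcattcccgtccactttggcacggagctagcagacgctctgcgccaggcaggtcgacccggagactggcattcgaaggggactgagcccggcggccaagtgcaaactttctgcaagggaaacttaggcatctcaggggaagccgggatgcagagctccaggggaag

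Zic1 and Zic4 therefore point away from each other, and their gene records overlap at the ends that face each other in that table. The printed Zic1 window lies inside the Zic4 record, as does the Zic4 window, which precedes a start site within that record. The Zic5 window lies just outside the Zic5 record, on the side of Zic2. The positions of the array probes relative to the overlap of Zic1 and Zic4 were not used here. The Zic1 window held 27 CpG dinucleotides and 66.0% G and C, against medians of 6 and 52.4% over all 32851 promoter windows of that length. In the Zic4 window there were 4 CpG and 44.4% G and C, so the partners on chromosome 9 lay on opposite sides of both medians. The Zic5 window held 11 CpG and 62.4% G and C. CCAAT, the CCAAT box, was found at 2 places in the Zic1 window, starting 205 and 121 bases before the start site, and at 0 in those of Zic4 and Zic5. It was present in 33.8% of all windows. CCACCC, a core shared by Gli and Zic binding sites and also held by sites of other zinc finger proteins, was found once each in the Zic4 and Zic5 windows and in 28.1% of all windows. TCAAAG, the core of the TCF/LEF site through which Wnt signals act, was in 0 of these 3 windows and in 13.8% of all. GGGCGG, the GC box, was found at 2 places in the Zic1 window, 0 in the other two, and in 32.7% of all windows. CANNTG, the E-box, was found once in each of the 3 windows and in 66.2% of all, and TAATTA, a homeodomain core, in 0 of 3 and in 4.84% of all. No match to one of these motifs overlapped a match to another in the 3 windows.

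Zic1, a gene of the dorsal neural tube and of cerebellar granule cell precursors, read a log2 signal of 5.56 and 5.78 in the day 4 arrays and 10.24 and 10.43 in the day 7 arrays. Every day 7 value was far above every day 4 value. The smallest gap between an array of each day was 4.46, which was 20.7 times the larger gap between replicates. The mean went from 5.67 ± 0.15 to 10.33 ± 0.13 (SD, n = 2 per day), a log2 difference of 4.66 with a standard error of 0.155 from the limma fit. Of the 22180 genes, 7 had a larger positive difference. The day 4 mean of Zic1 was above that of 42.3% of all genes and its day 7 mean above that of 94.1%.

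Zic4, which neighbours Zic1 and is likewise a gene of the dorsal neural tube and cerebellum, read 4.73 and 5.43 at day 4 and 6.14 and 6.35 at day 7. The days did not overlap, but the day 4 replicates lay 0.69 apart, and the smallest gap between the days was 0.71. The mean went from 5.08 ± 0.49 to 6.25 ± 0.15 (SD, n = 2), a difference of 1.17 with a standard error of 0.236. These are low readings, above those of 33.1% of all genes at day 4 and 49.4% at day 7.

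Zic2, whose human counterpart is a holoprosencephaly gene and which also guides retinal ganglion cell axons in the mouse, read 11.06 and 11.27 at day 4 and 10.11 and 10.33 at day 7. Both day 7 values were below both day 4 values, by 0.72 at the least. The mean went from 11.17 ± 0.15 to 10.22 ± 0.16 (SD, n = 2), a difference of -0.94 with a standard error of 0.159.

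Zic5, a gene of the dorsal neural tube and neural crest, read 9.84 and 9.93 at day 4 and 8.77 and 9.15 at day 7. The days again did not overlap, with a smallest gap of 0.69, and the wider spread was at day 7. The mean went from 9.88 ± 0.06 to 8.96 ± 0.27 (SD, n = 2), a difference of -0.92 with a standard error of 0.172. A second probe set that names Zic5 alone, 17547622, read 6.35 and 6.11 at day 4 and 5.02 and 4.97 at day 7, a difference of -1.23. Both Zic5 probe sets were lower at day 7 in every array, and the one used in the comparisons, 17309675, was the brighter. In bulk RNA such as this, fewer cells with a transcript and less of it per cell cannot be told apart.

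The values of both replicates and their means show side by side the 2 genes with higher and the 2 with lower signal at day 7.

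**Figure D1:**
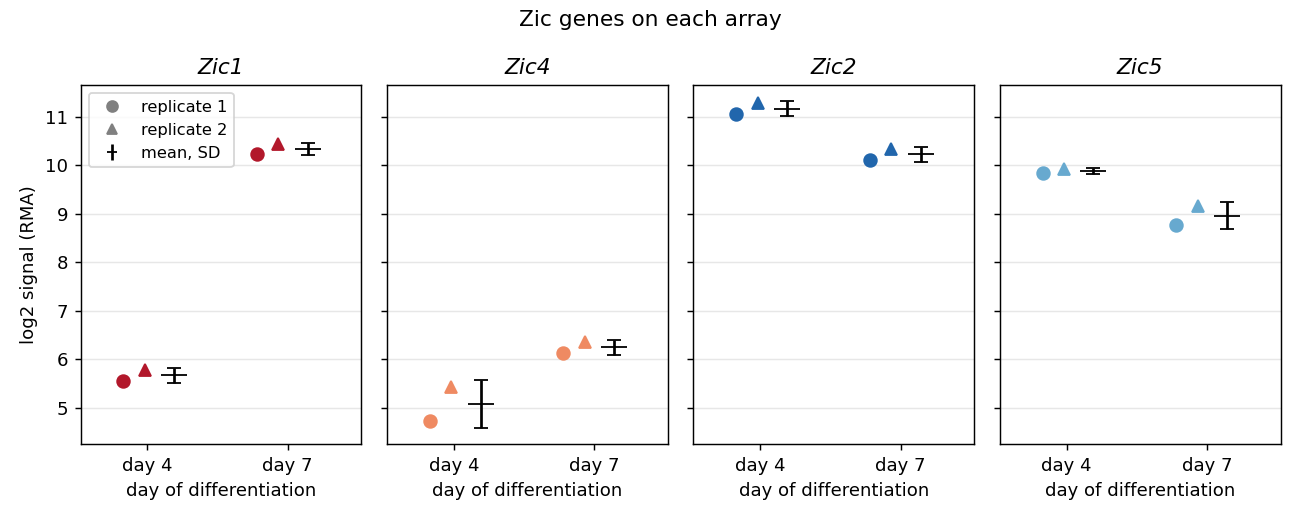
Log2 signal (vertical axis) of Zic1, Zic4, Zic2 and Zic5 at day 4 and day 7 (horizontal axis), with circles for replicate 1, triangles for replicate 2 and black marks for the mean with its SD (n = 2). Zic1 moves from 5.67 to 10.33, Zic4 from 5.08 to 6.25, Zic2 from 11.17 to 10.22 and Zic5 from 9.88 to 8.96, and within each gene the days do not overlap.

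The days did not overlap for 4 of the 4 genes, and for 50.8% of all 22180 genes. Because the genes were chosen on this contrast, nothing is read from that count. Among all genes, 3.22% had a rise of at least 2-fold, as Zic1 and Zic4 did, and 2.23% a fall of at least 2-fold, which Zic2 and Zic5 came close to but did not reach. The plot of all genes shows Zic1 far from the diagonal and the other 3 near the 2-fold lines.

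**Figure D2:**
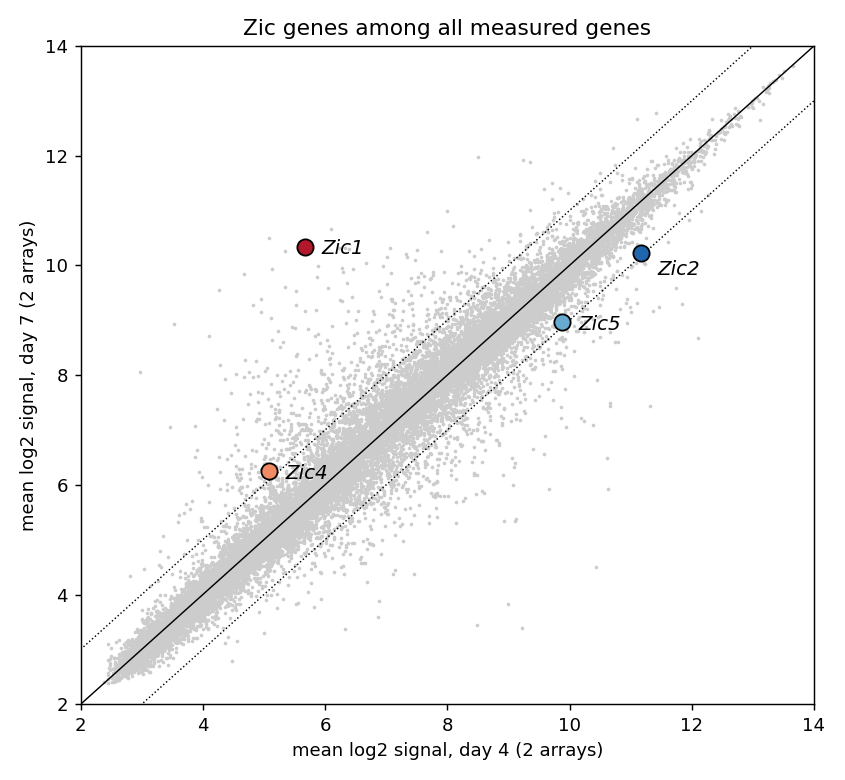
Mean log2 signal of every measured gene (grey points, 22180 genes) at day 4 (horizontal axis) and day 7 (vertical axis), with the Zic genes as coloured points, the diagonal as a solid line and 2-fold differences as dotted lines. Zic1 lies 4.66 above the diagonal, Zic4 1.17 above it, and Zic2 and Zic5 at -0.94 and -0.92 from it (all log2).

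Within the chromosome 14 pair, the differences between the days lay closer together with the brighter Zic5 probe set than with the other, which was not tested. With the brighter one, the Zic2 minus Zic5 value was 1.22 and 1.34 in the day 4 arrays and 1.34 and 1.18 in the day 7 arrays, so the days overlapped. The change of Zic2 and that of Zic5 differed by 0.019 on the log2 scale, well under the standard error of either. Over the 4 arrays, each gene centred on its own mean, the Zic2 and Zic5 profiles had a root mean square difference of 0.0731. By that measure Zic5 was the 20th nearest to Zic2 of 18824 genes, and Zic2 the 19th nearest to Zic5. Within 0.25 lay 779 genes for Zic2 and 769 for Zic5. The measure mainly reflects the difference between the days, on which the genes were chosen, so nothing is read from these ranks. With the other Zic5 probe set the changes differed by 0.29. The standard errors of 0.159 (Zic2) and 0.172 (brighter Zic5 probe set) belong to single changes. None was computed for a difference between changes. With this other probe set the Zic2 minus Zic5 value was 4.71 and 5.17 at day 4 and 5.09 and 5.36 at day 7. The days overlapped here too. The root mean square difference was 0.237, which would place this probe set 658th.

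Within the chromosome 9 pair the sizes differed. The Zic1 minus Zic4 value was 0.83 and 0.35 at day 4 and 4.10 and 4.08 at day 7. The change of Zic1 exceeded that of Zic4 by 3.50 on the log2 scale, and the days lay at least 3.25 apart in this value. Levels of the Zic probe sets are not compared with one another, since a probe set's brightness also depends on its probes.

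Across the pairs, the Zic1 minus Zic2 value went from -5.50 and -5.49 at day 4 to 0.13 and 0.09 at day 7. That is a shift of 5.61 on the log2 scale, or 48.7-fold, towards Zic1. The Zic4 minus Zic5 value went from -5.11 and -4.50 to -2.62 and -2.80, a shift of 2.09 towards Zic4. That these shifts run towards the chromosome 9 genes was fixed by the choice of genes that moved in opposite directions, and nothing is read from it.

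The gap between replicates of 1 day is independent of the contrast on which the genes were chosen. Replicate 2 was above replicate 1 for 4 of 4 Zic genes at day 4 and for 4 of 4 at day 7. This count depends on the Zic5 probe set. In the other one, 17547622, replicate 2 was below replicate 1 at day 4 (6.11 against 6.35) and at day 7 (4.97 against 5.02). The share of all genes with replicate 2 higher is given for the brightest probe sets. Over all genes replicate 2 was the higher for 51.5% at day 4, for 47.3% at day 7 and for 28.6% at both days. The Zic gaps ran from 0.089 (Zic5) to 0.69 (Zic4) at day 4, where the median size of the gap over all genes was 0.184. They ran from 0.19 (Zic1) to 0.39 (Zic5) at day 7, where that median was 0.149. The Zic4 gap at day 4 was larger than that of 96.9% of all genes, and the Zic5 gap at day 7 larger than that of 88.8%. The other 6 Zic gaps were larger than those of 26.1% to 67.7% of all genes.

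The genes around each pair were examined next. On the chromosome 9 side of Zic1, Tbc1d2b and Adamts7, the nearest named protein-coding neighbours, were higher at day 7. Adamts7, a metalloprotease gene, had a log2 difference of 1.10 (SE 0.160, limma adjusted p = 0.00618), and Tbc1d2b, which encodes a Rab GTPase regulator, one of 0.89 (SE 0.141, adjusted p = 0.00873). On the Zic4 side the scramblase family genes Plscr5, Plscr1 and Plscr2 had differences of 0.069, 0.0043 and 0.0093, with adjusted p-values of 0.851, 0.994 and 0.986. Zic1 and Zic4 thus sat between neighbours that rose on one side and neighbours that did not pass the test on the other. On the Zic4 side, Plscr5 (day means 4.20 and 4.27) and Plscr2 (3.40 and 3.41) read under the 25th percentile of level. At such low readings a steady transcript cannot be told from an undetected one. The contrast between the sides therefore rests on Plscr1, with day means of 8.08 and 8.09. Without day 7 replicate 1 the adjusted p was 0.0633 for Adamts7 and 0.0936 for Tbc1d2b, and without day 7 replicate 2 it was 0.0587 for Tbc1d2b.

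On chromosome 14, the non-coding gene 2610035F20Rik lies between Zic5 and Zic2. It was added after the gene table had been read, for its position and not by the naming rule. It read 7.10 and 7.05 at day 4 and 5.78 and 6.18 at day 7, a difference of -1.10 (SE 0.173, limma adjusted p = 0.00864). All 3 genes in a row, Zic5, 2610035F20Rik and Zic2, were thus lower at day 7, with differences of -0.92, -1.10 and -0.94. The falls of Zic5 and Zic2 were part of how they were chosen, so nothing is read from the run of 3. Without day 7 replicate 1 the adjusted p of 2610035F20Rik was 0.0741 (0.00209 to 0.0741 over the alternatives). Gm5089, a non-coding gene on the outer side of Zic5 that was added in the same way, stood at 5.29 and 5.51 against 5.10 and 5.80 (adjusted p = 0.955).

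Beyond it, Clybl, a mitochondrial enzyme gene, had a difference of -0.20 (adjusted p = 0.487), Tm9sf2 one of 0.12 (adjusted p = 0.725) and Timm8a2 one of -0.17 (adjusted p = 0.593). On the outer side of Zic2, Pcca, a subunit gene of propionyl-CoA carboxylase, had a difference of -0.30 (adjusted p = 0.249). Ggact fell by 0.75 (adjusted p = 0.026) and Tmtc4 rose by 0.81 (adjusted p = 0.0115). The neighbours nearest to the Zic5 and Zic2 pair on either side, Clybl and Pcca, did not pass the test. Of the 11 flanking protein-coding genes measured on both chromosomes, 3 rose, 1 fell and 7 were not called, beside 10.5% of all genes called in either direction. With day 7 replicate 1 left out 0 of them were called, and with day 7 replicate 2 left out 1. The adjusted p of Ggact was 0.123 or 0.186 without day 7 replicate 1 or 2 and 0.0794 when day 4 replicate 1 was dropped. For Tmtc4 it was 0.0826 or 0.106 without day 7 replicate 1 or 2.

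**Figure D3:**
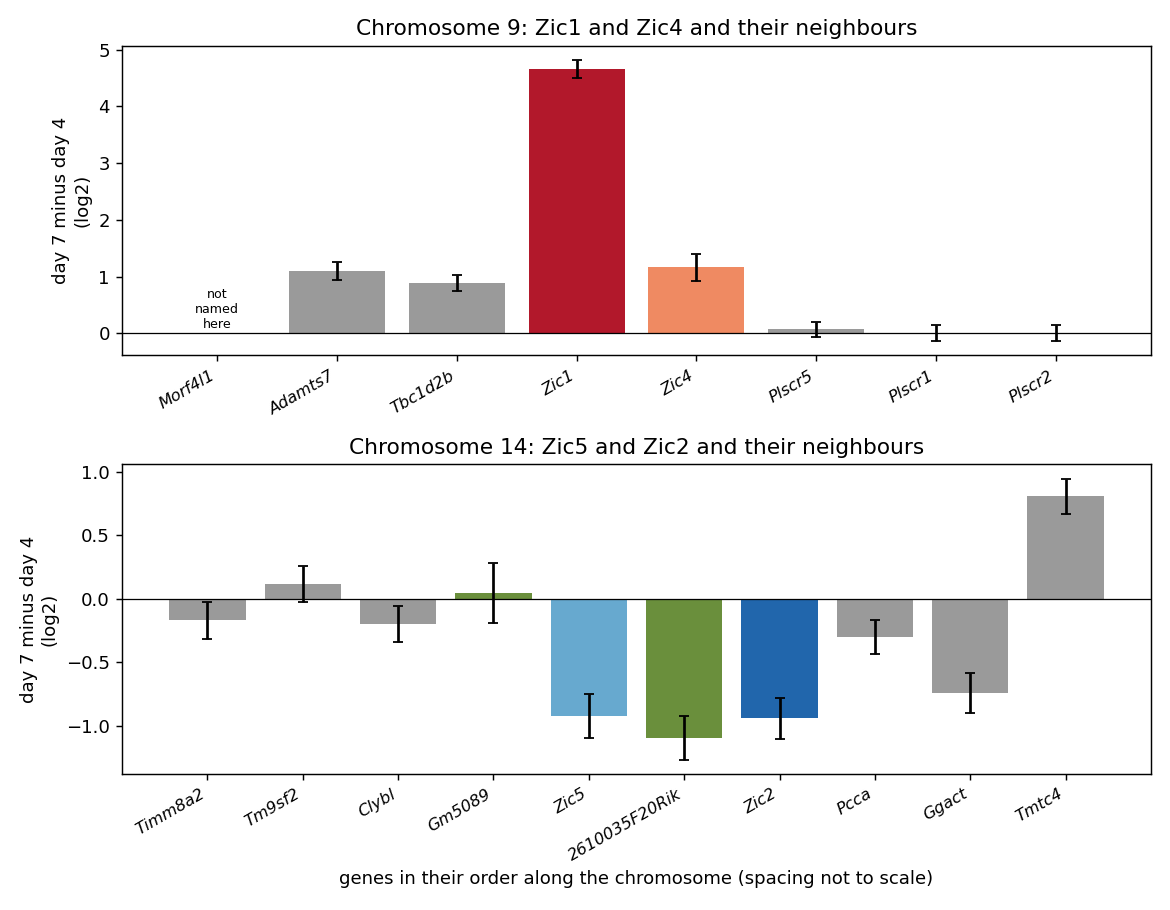
Day 7 minus day 4 difference (log2, vertical axes of different range, bars with the standard error from the limma fit) of the Zic genes and their neighbours in their order along chromosome 9 (top) and chromosome 14 (bottom). Red and orange are Zic1 and Zic4, blue are Zic5 and Zic2, green are the non-coding genes Gm5089 and 2610035F20Rik and grey are protein-coding neighbours. Zic1 (4.66) stands far above its neighbours, and 3 adjacent genes, Zic5, 2610035F20Rik and Zic2, lie between -0.92 and -1.10.

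For each Zic gene the genes with the nearest profile were named by the smallest root mean square difference over the 4 arrays, each gene centred on its own mean, among 18824 genes. Nearest to Zic1 were Dach1, a transcriptional cofactor gene (0.117), Plagl1, an imprinted zinc finger gene (0.213), and Rmst, a neural non-coding RNA (0.225).

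Nearest to Zic4 were Ebf4, a gene of the EBF transcription factor family (0.052), Scara3 (0.069) and Rnf150 (0.071), which shared its low reading in day 4 replicate 1. Nearest to Zic2 were the phospholipase gene Plcd1 (0.013), Prss41 (0.031) and Slc26a10 (0.034). Nearest to Zic5 were Hormad2, a gene of meiotic chromosomes (0.013), the netrin receptor gene Unc5b (0.022) and Triml1 (0.034). With 4 arrays that share 2 days, such likeness mainly reflects a similar difference between the days.

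**Figure D4:**
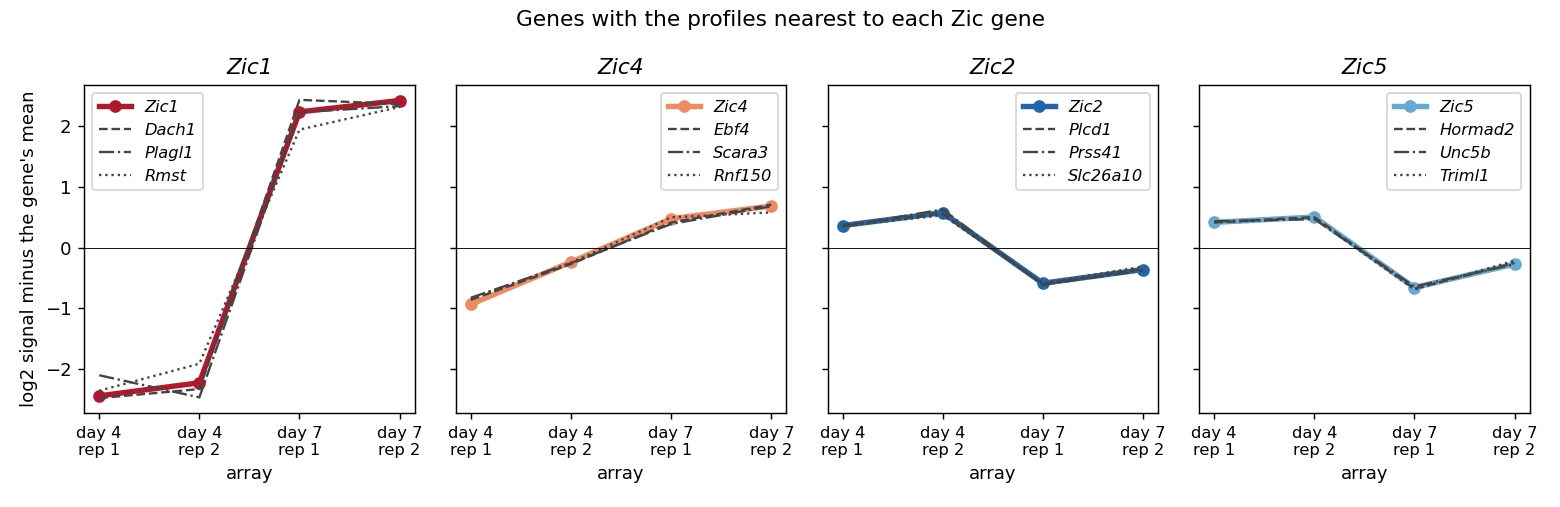
Log2 signal minus the gene's own mean (vertical axis) on each of the 4 arrays (horizontal axis) for each Zic gene (coloured line) and the 3 genes with the nearest profile (grey dashed and dotted lines). The lines of Zic2 and Zic5 and their nearest genes almost coincide, while those of Zic1 and its nearest genes are up to 0.225 apart (root mean square).

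The Gli and Glis genes, which encode zinc finger proteins related to Zic, were set beside the family. Of 6 measured, 4 rose (limma adjusted p under 0.05), 0 fell and 2 were not called, beside 6.15% of all genes called higher. Their median log2 difference was 0.73, against -0.0036 over all genes. Gli3, the main repressor of hedgehog target genes, read 9.29 and 9.88 at day 4 and 11.44 and 11.36 at day 7, a difference of 1.82 (SE 0.208, adjusted p = 0.00232). Glis3 rose by 1.37 (adjusted p = 0.00156), Glis2 by 0.82 (adjusted p = 0.011) and Gli1, itself a hedgehog target, by 0.63 (adjusted p = 0.0471). Gli2, an activator of hedgehog targets, stood at 8.28 ± 0.10 and 8.86 ± 0.17 (SD, n = 2, adjusted p = 0.0596), and Glis1 at 6.11 ± 0.41 and 6.12 ± 0.10 (SD, n = 2, adjusted p = 0.981). Gli2 passed in 4 of 11 alternatives, with an adjusted p of 0.0395 when replicate number was a block, 0.0467 and 0.026 among genes above the 25th percentile or the median of level, and 0.0236 with an intensity trend. Over all 11 its adjusted p ran from 0.0236 to 0.348. The count of called Gli and Glis genes was 2 without day 7 replicate 1 or 2. The adjusted p of Gli1 was 0.0822 to 0.302 with any 1 array left out and 0.0661 with quantile normalization, and that of Glis2 was 0.11 and 0.074 without day 7 replicate 1 or 2.

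**Figure D5:**
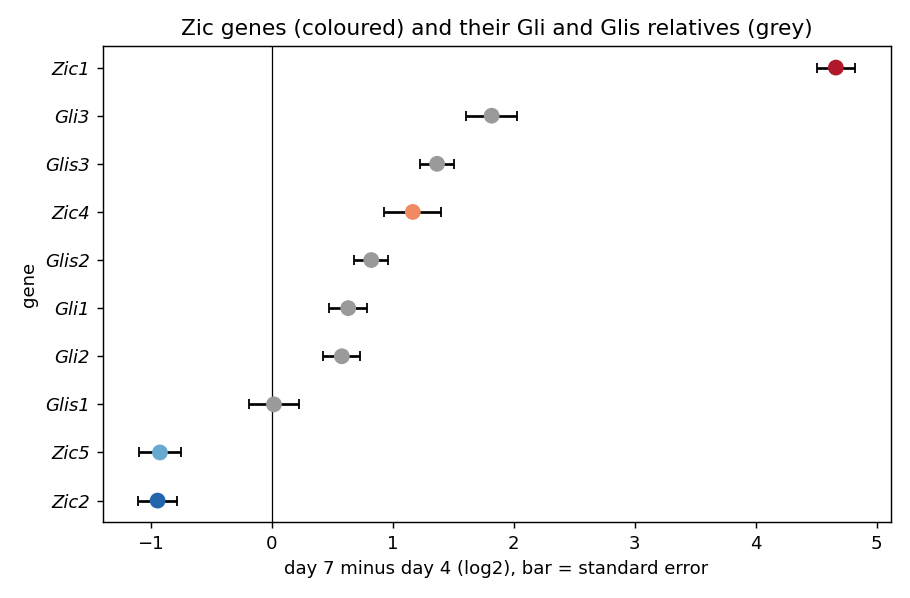
Day 7 minus day 4 difference (log2, horizontal axis, bars showing the standard error from the limma fit) of the 4 Zic genes (coloured) and the 6 Gli and Glis genes (grey), ordered by size on the vertical axis. Zic1 (4.66) lies above Gli3 (1.82), and Zic2 and Zic5 lie at the lower end near -0.9.

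Genes of the embryonic regions in which Zic genes act were counted from lists chosen with earlier results of these data known. The lists share genes, so their counts are not independent. Pax3, Pax7 and Msx2 are in both the dorsal neural tube and the neural crest list. Foxh1, Tdgf1 and Nodal are in both the primed epiblast and the holoprosencephaly list, and Gli2 is in the latter too. Otx2 of the primed epiblast list and Six3 of the holoprosencephaly list are also among the eye field markers given below. Among dorsal neural tube, roof plate and cortical hem genes, the setting in which Zic1 and Zic4 are best known, 11 of 19 rose and 0 fell, beside 6.15% of all genes called higher. Their median difference was 1.68, and the largest rises were those of the Wnt ligand gene Wnt8b (5.42, limma adjusted p = 3.38e-05) and the R-spondin gene Rspo3 (4.92, adjusted p = 3.73e-05), beside the 4.66 of Zic1. Among neural plate border and neural crest genes, where Zic5 also acts, 7 of 16 rose, led by Tfap2b (3.28) and Pax3 (2.54), and 1 fell, Foxd3 (-1.05, adjusted p = 0.0253), beside 6.15% of all genes called higher and 4.33% lower. The Foxd3 call was lost without day 4 replicate 1 (adjusted p = 0.0638), day 7 replicate 1 (0.0666) or day 7 replicate 2 (0.171). Of primed epiblast genes, the state that precedes neural induction, 12 of 17 fell and 1 rose, Sox3 (1.41), beside 4.33% of all genes called lower. The largest falls there were those of Fgf5 (-4.71) and Dnmt3b (-3.41), against -0.94 for Zic2 and -0.92 for Zic5. Of 15 holoprosencephaly genes other than Zic2, 4 rose, among them the hedgehog co-receptor genes Boc (2.66) and Gas1 (1.98), and 3 fell, among them the Nodal pathway genes Foxh1 (-3.22) and Tdgf1 (-1.87), beside the same 6.15% and 4.33% of all genes.

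The marker counts that follow stand beside 6.15% of all genes called higher and 4.33% called lower. Among 10 eye field and early retina markers of the labelled tissue, 6 rose, led by Nr2e1 (3.55) and Pax6 (3.48). The 4 not called were Six6 (2.00), Six3 (0.36), Tbx5 (0.25) and Otx2 (-0.54). The summed linear signal of all 10 was 2522 and 3181 at day 4 against 5256 and 6548 at day 7. Otx2, with the highest day means of the 10 (10.95 and 10.40), weighed most in that sum. Rax, the gene whose promoter drives the GFP, had a difference of 1.51 (limma adjusted p = 0.021), and its call did not hold with day 4 replicate 1 (adjusted p = 0.052) or day 7 replicate 2 (0.119) left out. Zic genes are also active in somites and meninges, so markers of those tissues are given beside the higher day 7 values of Zic1 and Zic4. Of 13 somite and other mesoderm markers 2 rose, Foxc1 (2.12) and Foxc2 (0.90), and 1 fell, Tcf15 (-0.98), with a summed linear signal of 695 and 778 at day 4 and 777 and 858 at day 7. Of 10 markers of meninges and connective tissue 3 rose, Foxc1, Pdgfra (1.68) and Lum (1.20), with a summed signal of 709 and 872 against 1596 and 2002. Pdgfra, with the highest day means of the 10 (8.17 and 9.86), weighed most in that sum. Lum had day means of 3.31 and 4.51, both under the 25th percentile of level, so its call rests on low readings. Among genes above that percentile, 2 meninges and connective tissue markers were called. The 7 not called were Col3a1 (1.42), Col1a2 (0.65), Pdgfrb (0.55), Col1a1 (0.51), Aldh1a2 (0.057), Tbx18 (-0.24) and Dcn (-0.39). Of 9 endoderm markers 2 rose, Cxcr4 (2.50) and Sox17 (0.77), with a summed signal of 2277 and 2204 against 2152 and 2723. The 7 not called were Foxa2 (0.21), Gata4 (0.17), Gata6 (-0.055), Sox7 (-0.083), Hnf4a (-0.15), Ttr (-0.64) and Afp (-0.70), and the median difference of the 9 was -0.055. Ttr, with a day 4 mean of 9.77, weighed most in the day 4 sum. Signal on these arrays has no true 0. The mean went from 5.24 to 7.36 for Foxc1, from 5.20 to 6.10 for Foxc2 and from 7.43 to 6.45 for Tcf15, and the other 10 mesoderm markers had day means between 3.80 and 6.38. The part of such cells in the Zic values was not tested. Calls lost with 1 array left out were those of Foxc1 (adjusted p = 0.0554 without day 7 replicate 2), Foxc2 (0.0794 and 0.13 without day 7 replicate 1 or 2), Lum (0.0524 without day 4 replicate 2, 0.102 without day 7 replicate 1), Tcf15 (0.0775 and 0.0824) and Sox17 (0.092 without day 4 replicate 1, 0.139 and 0.205 without day 7 replicate 1 or 2). The number of meninges and connective tissue markers called was 6 without day 4 replicate 2, 4 without day 4 replicate 1, 2 without day 7 replicate 1 or 2, and 5 when replicate number was a block. That of mesoderm markers was 1 and 0 without day 7 replicate 1 or 2, and that of endoderm markers 1 without day 4 replicate 1 or day 7 replicate 1.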

How the data were processed

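Total RNA was profiled on 4 Affymetrix arrays, 1 sample each. The values deposited by the authors are log2 signals of probe sets, computed by RMA with Partek 6.5 according to the submitters' processing notes. RMA corrects background, quantile-normalizes the arrays and summarises probes, which hides any shift common to most genes. Its settings are not given in the sources used here. Values were used as deposited. Array medians lay between 5.68 and 5.77, and replicates correlated with r = 0.986 at day 4 and 0.991 at day 7 across 41345 probe sets, which are not independent replicates.

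Of these, 23521 named 1 gene in the platform annotation. Each gene was represented by its brightest probe set on average, giving 22180 genes. Differences were fitted with limma 3.58.1 in R 4.3.3 (lmFit and eBayes without trend, day as the only term, 2 residual degrees of freedom, two-sided). Adjustment was by Benjamini-Hochberg across all 22180 genes, and a gene was called at an adjusted p under 0.05. The fit was tested on data simulated from its own fitted spread, with planted differences larger than those of Zic2, Zic4 and Zic5. Such data cannot show whether the spread between replicates is purely technical, and nothing is read from them here. The number of arrays limits the precision. Summed linear signals are sums of 2 to the power of the log2 values.

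The Zic genes and all lists were chosen with earlier results of these data known. Named genes were the Zic genes, all measured Gli and Glis genes, the flanking genes, the 2 largest called rises and falls of each other list, and the 3 nearest profiles of each Zic gene. Predicted genes, microRNAs and small nucleolar RNAs were left out of the profiles. Rax and Lum were named outside this rule, after their values were seen. A few listed genes are not reported here. Alternatives were a replicate block, each array left out, quantile normalization, centring, filters on level, an intensity trend with a robust prior, averaging of probe sets within a gene, and a stricter limit.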

Additional observations from a re-analysis of the deposited data

How the results depend on the processing

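The differences of Zic1, Zic2, Zic4 and Zic5 kept their direction under every alternative run, but most of these runs could not have turned a sign. The replicate block, the filters on level and the intensity trend leave the differences themselves unchanged. Leaving 1 array out cannot reverse a gene whose days do not overlap. Only quantile normalization, centring and, for Zic5, its other probe set or averaging could have done so. With 1 array left out the differences ran from 4.55 to 4.77 for Zic1 and 0.82 to 1.51 for Zic4. Those of Zic2 ran from -1.06 to -0.83 and those of Zic5 from -1.12 to -0.73. Among these genes only Zic5 moved by more than the spread between replicates, to -1.23 with its other probe set, an alternative chosen after seeing the data. With 2 arrays per day, leaving 1 out cannot move a difference by more than that spread, so nothing is read from those runs. Zic4 could not be given among genes above the median level. limma called 2324 genes (1364 higher, 960 lower), and 887 to 2500 (573 to 1378 higher, 314 to 1122 lower) with 1 array left out, the lone array of its day being assumed to vary like the other day. At an adjusted p under 0.01 it called 1078 (675 higher, 403 lower), with 2 Gli and Glis genes and 2 flanking genes, which numbered 2 to 3 and 0 to 4 with 1 array left out. The cause of these shifts in the counts was not tested, beyond the fewer arrays and the stricter limit.

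The labels do not say whether a replicate number marks anything shared between the days. The deviations of same-numbered arrays correlated with r = 0.186, which over 2 pairs does not settle it, so the arrays were not treated as paired. With the replicate number as a block 2770 genes passed, and the Zic differences were unchanged, as the design is balanced. Gli2 then passed (adjusted p = 0.0395), and 5 meninges and connective tissue markers were called in place of 3. Some genes that were not called turned sign. Glis1 ran from -0.27 to 0.31 with 1 array left out and was -0.045 with quantile normalization and -0.025 with centring. Gm5089 ran from -0.30 to 0.39. Plscr1 ran from -0.061 to 0.070 and was -0.067 and -0.038 with those scalings. Plscr2 ran from -0.085 to 0.10 and was -0.033 with centring. The cause was not tested.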
